A study of Mus musculus with 7 samples.

Results

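The small RNAs held by Ago2 K566A were compared directly with those held by Ago2 Q548A, over all 959 mature miRNA names of the deposited count table and without the wild-type library. The comparison used 2 of the 7 libraries of the series. Both came from mouse embryonic stem cells with an Ago-null background and a Flag-tagged Ago2, whose bound small RNAs were collected with an anti-Flag antibody. The K566A group is cells with Ago2 carrying the single change K566A, and the Q548A group is cells with Ago2 carrying the single change Q548A. A library labelled empty, with the genotype given only as control, from mouse embryonic stem cells and the same antibody, gave the background. Each group is 1 library, which leaves the differences without replicate error, and p-values were therefore not computed: each value compares 2 libraries. Neither the genotype labels nor the amount of Ago2 protein in each culture could be checked from counts of miRNAs.

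A miRNA hairpin is cut to a short duplex of a 5p and a 3p strand, and Argonaute keeps one strand as its guide and discards the other. The MID domain of Ago2 holds the guide by its 5' end: a pocket binds the 5' phosphate and the base at position 1, and the bases that follow, positions 2 to 8, form the seed that pairs with target RNAs. K566 and Q548 are both residues of that domain. The title of the series names the asymmetry between small-RNA strands and the part of Argonaute in it.

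The sequences on which the comparison turned are shown with the seed in capitals. They are RefSeq mature miRNAs of the build GRCm38.p6. Members of the miR-290 cluster come first, because its most abundant arm, a 5p arm, was lower in K566A while its 4 most abundant 3p arms with a sequence had higher CPM there, followed by miR-302b-3p, which shares a seed with 3 of them:
miR-292-5p: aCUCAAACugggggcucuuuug
miR-293-3p: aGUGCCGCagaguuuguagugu
miR-294-3p: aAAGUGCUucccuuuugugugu
miR-295-3p: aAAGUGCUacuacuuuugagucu
miR-291a-3p: aAAGUGCUuccacuuugugugc
miR-302b-3p: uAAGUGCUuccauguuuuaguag

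The next sequences are those with the 5 largest rises and then the 5 largest falls in K566A among called miRNAs that averaged 100 CPM or more, as the miRNAs that differed most at that level:
miR-92a-2-5p: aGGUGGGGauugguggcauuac
miR-30c-1-3p: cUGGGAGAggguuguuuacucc
miR-365-2-5p: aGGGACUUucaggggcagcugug
miR-125a-3p: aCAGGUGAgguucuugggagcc
miR-195-3p: cCAAUAUUggcugugcugcucc
miR-149-5p: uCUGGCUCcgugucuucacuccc
miR-323-3p: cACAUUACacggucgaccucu
miR-411-3p: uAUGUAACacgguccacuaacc
miR-673-3p: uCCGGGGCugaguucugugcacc
miR-501-3p: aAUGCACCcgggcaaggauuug

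The largest rise and the largest fall of all compared miRNAs, both in miRNAs that averaged under 100 CPM, were those of the following:
miR-344-5p: aGUCAGGCuccuggcuagauuccagg
miR-1197-3p: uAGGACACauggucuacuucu

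A set with 1 shared seed, AUUGCAC, is shown because its members went in both directions:
miR-92b-3p: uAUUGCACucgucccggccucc
miR-92a-3p: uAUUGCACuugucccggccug
miR-25-3p: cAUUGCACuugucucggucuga
miR-363-3p: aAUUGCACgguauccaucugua
miR-367-3p: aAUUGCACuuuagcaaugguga

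The K566A library held 14917466 counts and the Q548A library 94711216 counts, 6.35 times as many, once each mature name was counted by its highest locus. The empty control held 33468 counts. Values are counts per 1000000 of these totals (CPM). A miRNA with a count of 0 could have had up to 3, equal to 0.201 CPM in K566A and 0.0317 CPM in Q548A. Of the 959 names, 153 were at 0 in both libraries and 367 averaged 10 CPM or more; the comparisons are over these 367, none of which was at 0 in either library. Across them the CPM values of K566A and Q548A had a Spearman correlation of 0.73, a description of these libraries in which the points share depth and the dominant miRNA. The miR-290 cluster and the miR-302/miR-367 cluster, the defining miRNAs of embryonic stem cells, summed to 59.7% of counts in K566A and 77.6% in Q548A. The marker names of muscle (8.58 CPM in K566A and 1.87 CPM in Q548A over 11 names) and liver (4.96 and 1.05 CPM over 2 names) were near 0. The fibroblast and mesenchyme list of 27 names summed to 9488 CPM in K566A and 2301 CPM in Q548A, the neuronal list of 10 to 25254 and 5040 CPM, of which miR-128-3p made up 24572 and 4587 CPM, and the other lists to between 424 and 1465 CPM in K566A and between 197 and 605 CPM in Q548A. The part of other cell types in the differences was not tested, and in such bulk samples fewer cells of a type and less of its RNA per cell cannot be told apart.

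The most abundant miRNA of both libraries was miR-292-5p, the 5p arm of a hairpin of the miR-290 cluster, which lies on chromosome 7 and dominates the miRNAs of mouse embryonic stem cells. Its locus is chr7:3219201-3219222 (mm9). It took 217022 CPM, or 21.7% of counts, in K566A and 652659 CPM, or 65.3%, in Q548A. The most abundant 3p arms of the cluster had higher CPM in K566A. miR-293-3p had 183837 CPM in K566A and 54253 CPM in Q548A. miR-294-3p had 92661 CPM in K566A and 20740 CPM in Q548A. miR-292-3p, the partner strand of miR-292-5p, had 70210 CPM in K566A and 22230 CPM in Q548A. The 3 miRNAs that share the seed CUCAAAC, miR-292-5p, miR-293-5p and miR-290-5p, all lay below the median of all compared miRNAs; 2 of them were called lower in K566A, or all 3 without miR-292-5p in the totals, and they summed to 22.3% of counts in K566A and 66.4% in Q548A. miR-293-5p had 2475 CPM in K566A and 7179 CPM in Q548A, and miR-291a-5p, another 5p arm of the cluster, had 2109 CPM in K566A and 3757 CPM in Q548A.

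All miRNAs other than miR-292-5p together held 78.3% of counts in K566A and 34.7% in Q548A, so CPM values depend on whether miR-292-5p is part of the total. The median log2 ratio of K566A over Q548A across the 367 miRNAs was 1.20. The call of a miRNA as higher or lower required that the exact 95% interval of its CPM ratio, which covers counting error only, lay wholly above 2 or below 0.5. By total counts 193 miRNAs, 52.6% of the 367, were higher in K566A and 60, 16.3%, were lower. With totals that leave out miR-292-5p, every log2 ratio is shifted by -1.17, and 78 miRNAs (21.3%) were then higher and 109 (29.7%) lower. Lists and base groups are therefore mostly given by both counts, and by their median relative to the median of all 367, which does not depend on the scaling.

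**Figure D1:**
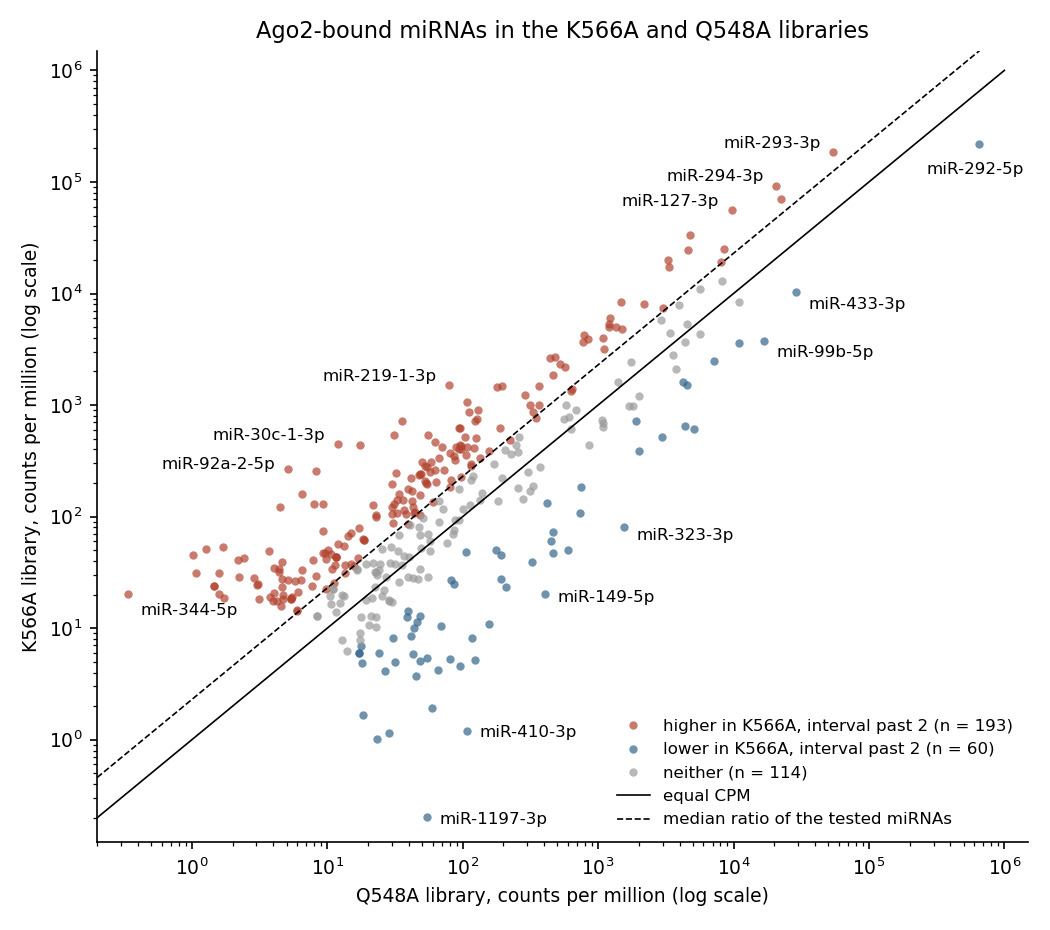
CPM in the K566A library (vertical, log scale) against CPM in the Q548A library (horizontal, log scale) for the 367 miRNAs that averaged 10 CPM or more, coloured by the call on total counts. The solid line marks equal CPM and the dashed line the median ratio; miR-292-5p, miR-433-3p and miR-99b-5p lie below the solid line among the most abundant miRNAs, and miR-293-3p, miR-294-3p and miR-127-3p above the dashed line.

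Among the 10 most abundant miRNAs of each library, 6 were shared. The 10 took 74.2% of counts in K566A and 83.6% in Q548A. Beyond the miR-290 cluster, the K566A list held miR-127-3p, an imprinted miRNA of the Dlk1-Dio3 cluster, at 56004 CPM in K566A and 9671 CPM in Q548A (log2 ratio 2.53, 95% interval 2.53 to 2.54). It also held miR-148a-3p, with 33326 CPM in K566A and 4741 CPM in Q548A (2.81), miR-128-3p (2.42) and miR-25-3p (2.61). All of these were called higher also without miR-292-5p. miR-541-5p (1.55) and miR-423-5p (1.23), on the same list, were called higher by total counts but not without miR-292-5p.

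The Q548A list held miRNAs that were lower in K566A. miR-433-3p, the third most abundant miRNA of that library, had 10266 CPM in K566A and 28946 CPM in Q548A (log2 ratio -1.50, 95% interval -1.50 to -1.49). miR-99b-5p, which is encoded in an intron of Spaca6 beside let-7e and miR-125a, had 3779 CPM in K566A and 16789 CPM in Q548A (-2.15). miR-543-3p had 3604 CPM in K566A and 10896 CPM in Q548A (-1.60). miR-183-5p, with 8447 CPM in K566A and 10972 CPM in Q548A (-0.38), passed the limit for lower without miR-292-5p but not by total counts.

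Among the 171 miRNAs that averaged 100 CPM or more, of which 124 were called by total counts, the largest rise was that of miR-92a-2-5p, usually the discarded strand of a hairpin of the miR-106a-363 cluster at chrX:50095069-50095090 (mm9). It had 3994 counts (268 CPM) in K566A and 482 counts (5.09 CPM) in Q548A, a log2 ratio of 5.72 (95% interval 5.58 to 5.86). miR-30c-1-3p, from an intron of Nfyc, had 446 CPM in K566A and 12 CPM in Q548A (5.21). Both are strands that their hairpins usually discard, and each was more than 10-fold higher in K566A. miR-365-2-5p had 256 CPM in K566A and 8.27 CPM in Q548A (4.95). miR-125a-3p had 440 CPM in K566A and 17.3 CPM in Q548A (4.67). miR-195-3p had 721 CPM in K566A and 35.4 CPM in Q548A (4.35). Each of these 5 had at least 482 counts in Q548A, the library where it was low.

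The other 7 of the 12 largest rises were miR-219-1-3p, with 1522 CPM in K566A and 79.2 CPM in Q548A (log2 ratio 4.26), miR-200a-5p (4.14), miR-148a-5p (3.31), miR-218-5p (3.29), miR-126-3p (3.02), miR-485-5p (2.97) and miR-302a-3p (2.94). miR-126-3p is known from endothelial cells, where its host gene Egfl7 is expressed, and it had 1457 CPM in K566A and 180 CPM in Q548A. Its partner strand miR-126-5p went the other way, with 7.91 CPM in K566A and 17.4 CPM in Q548A (-1.14, an interval of -1.42 to -0.87 that does not lie past a fold of 2). The less abundant strand of a hairpin was the arm with the smaller percentage share, averaged over the 2 libraries. Of the 12 miRNAs, 5 were such strands, against 2 of the 12 largest falls given below. Over all compared miRNAs these strands did not lie higher. Of 99 less abundant strands 51 were higher and 15 lower, or 28 and 31 without miR-292-5p, with a median 0.003 above that of all. Of 264 more abundant strands 141 were higher and 44 lower, or 50 and 77, with a median 0.008 above.

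The largest fall was that of miR-149-5p, from an intron of Gpc1 at chr1:94746958-94746980 (mm9), with 302 counts (20.2 CPM) in K566A and 38361 counts (405 CPM) in Q548A, a log2 ratio of -4.32 (95% interval -4.49 to -4.16). miR-323-3p of the Dlk1-Dio3 cluster had 79.97 CPM in K566A and 1554 CPM in Q548A (-4.28). miR-411-3p of the same cluster had 50.3 CPM in K566A and 602 CPM in Q548A (-3.58). The empty control had 18, 36 and 21 counts of these miRNAs, in the same order, against 302, 1193 and 751 in K566A. miR-744-5p, from an intron of Map2k4, had 606 CPM in K566A and 5106 CPM in Q548A (-3.08). miR-298-5p had 649 CPM in K566A and 4382 CPM in Q548A (-2.76). The others were miR-673-3p (-3.30), miR-501-3p (-3.16), miR-382-5p (-3.05), miR-351-5p (-2.89), miR-877-3p (-2.82), miR-328-3p (-2.75) and miR-770-3p (-2.67). miR-877 is a mirtron of Abcf1, a hairpin released by splicing and not by Drosha. Of these 12, 5 lay on chromosome 12, all in the Dlk1-Dio3 cluster. All 24 of the largest rises and falls kept their call without miR-292-5p. The empty control held at most 5.96% as many counts as K566A for any of the 12 falls, and at most 0.0623% for any of the 12 rises.

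**Figure D2:**
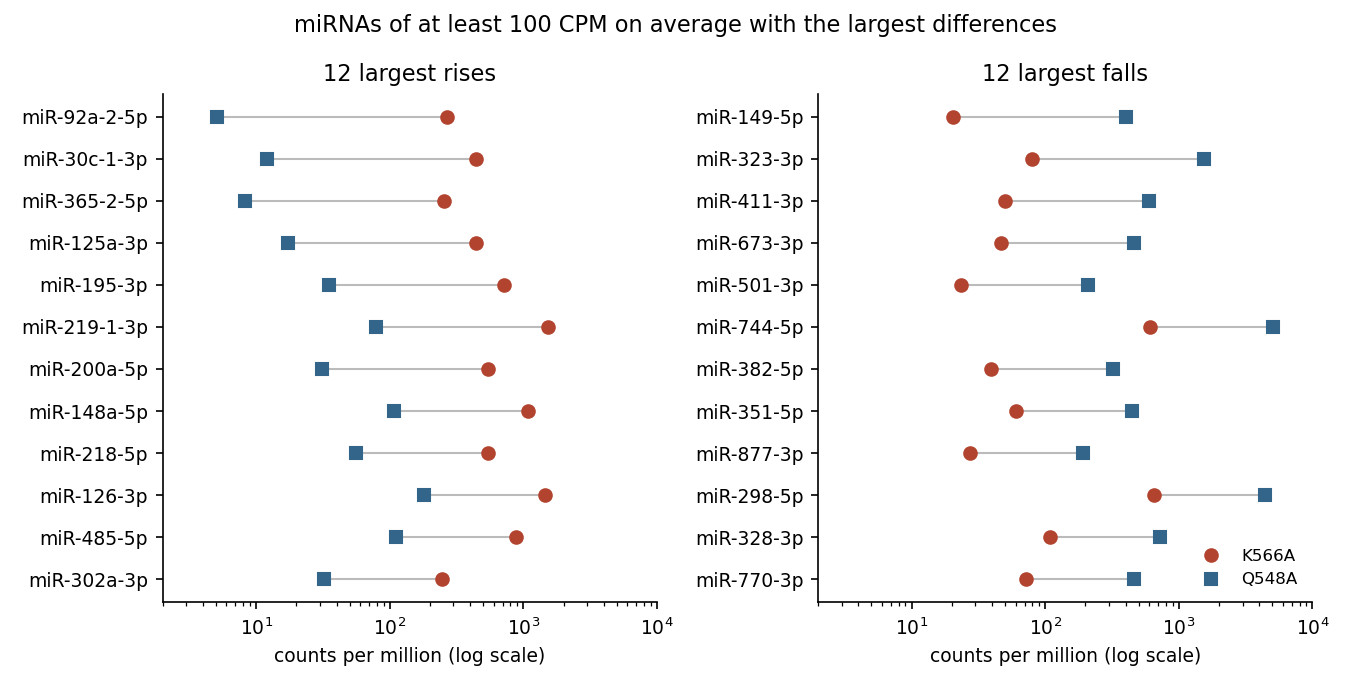
CPM (log scale) of the 12 miRNAs with the largest rise and the 12 with the largest fall among called miRNAs that averaged 100 CPM or more; circles are K566A, squares are Q548A, 1 library each. Rises run from miR-92a-2-5p (268 CPM in K566A and 5.09 CPM in Q548A) to miR-302a-3p, and falls from miR-149-5p (20.2 CPM in K566A and 405 CPM in Q548A) to miR-770-3p.

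Among the miRNAs that averaged under 100 CPM the most extreme differences were larger. miR-1197-3p had 3 counts in K566A and 5163 counts (54.5 CPM) in Q548A (log2 ratio -8.08, 95% interval -10.36 to -6.53). miR-410-3p had 18 counts (1.21 CPM) in K566A and 10138 counts (107.04 CPM) in Q548A (-6.47). At the other end miR-344-5p had 299 counts (20.04 CPM) in K566A and 32 counts (0.338 CPM) in Q548A (5.89, 95% interval 5.36 to 6.46).

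The let-7 family, which accumulates as stem cells differentiate, was higher in K566A: 13 of 13 compared members were called higher by total counts, 5 without miR-292-5p, and 0 were lower by either. Its median lay 0.97 above that of all miRNAs. Over all compared miRNAs 52.6% were higher by total counts and 21.3% without miR-292-5p. The members let-7a-1-3p and let-7c-2-3p had equal counts, 355 in K566A and 138 in Q548A, so they may not be separate. let-7f-5p had 438 CPM in K566A and 96.1 CPM in Q548A (log2 ratio 2.19), and let-7a-5p had 434 CPM in K566A and 97.3 CPM in Q548A (2.16). The members ran from let-7g-5p (1.22) to let-7e-3p (4.86), a strand that is usually discarded, with 466 counts in K566A and 102 counts in Q548A. Of the 9 that share the let-7 seed GAGGUAG, 9 were higher by total counts and 2 without miR-292-5p.

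The miR-15/16 family, known for targeting cell cycle genes, had 8 of 9 higher and 0 lower, or 3 and 0 without miR-292-5p, with a median 1.15 above that of all. The 5 miRNAs with the seed AGCAGCA, that of miR-16, lay close together, from miR-16-5p, with 200 CPM in K566A and 53.4 CPM in Q548A (1.90), to miR-322-5p (2.35). The family as a whole ran from miR-15b-3p (0.48) to miR-195-3p (4.35). The miR-148/miR-152 family, repressors of DNA methyltransferase transcripts among others, had 5 of 6 higher and 0 lower, or 3 and 0, with a median 1.13 above that of all. The 3 compared members of the miR-34/miR-449 family, whose miR-34 genes p53 induces, were all higher, with miR-34c-5p at 196 CPM in K566A and 29.9 CPM in Q548A (2.71). Without miR-292-5p 2 of these 3 were higher. The shares over all 367 miRNAs were 52.6% higher and 16.3% lower, or 21.3% and 29.7%.

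The miR-302/miR-367 cluster, whose miR-302 members carry the AAGUGCU seed found in the miR-290 cluster, had 4 of 4 compared members higher by either total. miR-302b-3p had 4285 CPM in K566A and 782 CPM in Q548A (2.45), miR-302d-3p was at 2.56, miR-302a-3p at 2.94 and miR-367-3p at 3.43. The cluster summed to 0.532% of counts in K566A and 0.0951% in Q548A over its 10 names. Among all 367 miRNAs 52.6% were higher and 16.3% lower, or 21.3% and 29.7% without miR-292-5p. The miR-290 cluster differed among its own members. By total counts 5 of 13 were higher and 2 lower, and without miR-292-5p 1 was higher and 6 lower, with miR-290-3p the 1 (718 CPM in K566A and 122 CPM in Q548A, 2.55). Within the seed AAGUGCU the miR-290 members ran from miR-291a-3p, with 10942 CPM in K566A and 5637 CPM in Q548A (0.96), through miR-295-3p (1.31) to miR-294-3p (2.16).

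The miR-17-92 cluster and its paralogs, known to promote proliferation, had 18 of 22 higher and 0 lower, or 8 higher and 2 lower without miR-292-5p, with a median 0.72 above that of all. Of all 367 miRNAs, 52.6% were higher and 16.3% lower, or 21.3% and 29.7%. miR-25-3p had 19991 CPM in K566A and 3272 CPM in Q548A (2.61). miR-20a-5p had 6088 CPM in K566A and 1226 CPM in Q548A (2.31). miR-363-3p (1.89) and miR-92a-3p (2.08) share the seed of miR-25-3p. miR-92b-3p, from another locus but with the same seed, had 1516 CPM in K566A and 4518 CPM in Q548A (-1.58, 95% interval -1.60 to -1.56), so miRNAs with 1 seed were called in opposite directions. Without miR-292-5p, 2 of the 6 compared miRNAs with this seed were higher and 1 was lower. miR-92b-3p and miR-92a-3p also share the first base, U. The seed CCCUGAG had calls in both directions by total counts but 0 higher and 2 lower without miR-292-5p, with miR-351-5p at 60.1 CPM in K566A and 445 CPM in Q548A (-2.89), miR-125a-5p at -0.72 and miR-125b-5p at 113 CPM in K566A and 37.1 CPM in Q548A (1.61).

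Fewer lists lay low. Beside them, all 367 miRNAs had 52.6% higher and 16.3% lower, or 21.3% and 29.7% without miR-292-5p. The miR-23/27/24 clusters had 2 of 8 higher and 1 lower, or 1 and 4 without miR-292-5p, with a median 1.20 below that of all. miR-27a-3p, a regulator of fat and muscle cell differentiation, had 2658 CPM in K566A and 445 CPM in Q548A (2.58), while miR-24-3p, a member of the same list, had 987 CPM in K566A and 1693 CPM in Q548A (-0.78); the locus of miR-24-3p overlaps that of miR-3074-5p, so its count is uncertain. The 4 compared miRNAs made without Dicer or Drosha had 0 higher and 1 lower, or 0 and 3, with a median 1.91 below that of all and miR-320-3p at 728 CPM in K566A and 1068 CPM in Q548A (-0.55). The miR-181 family had 1 of 3 higher and 0 lower, or 0 and 2, with a median 1.47 below that of all. The miR-103/miR-107 family had 0 of 2 in either direction, or 0 and 1, with a median 1.06 below. Of the lists that straddled the median, the Sfmbt2 cluster, a large repeat-derived cluster of chromosome 2, had 11 of 22 higher and 3 lower, or 0 and 5 without miR-292-5p, and a median 0.11 lower than that of all. The miR-183/miR-96/miR-182 cluster had 2 of 5 higher and 0 lower, or 0 and 1, with a median 0.38 below that of all, and the miR-99/100 family 1 of 3 higher and 1 lower, or 0 and 1, with a median 1.01 below.

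The remaining families lay above the median. The miR-30 family had 7 of 10 higher and 0 lower, or 4 and 1 without miR-292-5p (median 0.92 above that of all), and miR-30d-5p, its lowest member, was at -0.97. The miR-26 family had 3 of 4 higher, or 2 (0.90), and the miR-125 family 3 of 4, or 1 with 1 lower (0.68). The miR-200 family, which keeps cells epithelial, had 6 of 7 higher and 1 lower, or 1 and 1 (0.47); the lower member was miR-429-3p (-1.78). The miR-130/miR-301 family had 5 of 6 higher and 0 lower, or 2 and 1 (0.37), and the 1 compared member of the miR-29 family, miR-29a-3p, was at 2.21. Over all compared miRNAs 52.6% were higher and 16.3% lower, or 21.3% and 29.7% without miR-292-5p. Among the marker lists, 8 of 12 fibroblast names were higher and 0 lower, or 5 and 2, with a median 0.62 above that of all. Of the 7 neuronal names 6 were higher and 0 lower, or 3 and 1 (1.02 above). The embryonic stem cell list had 9 of 17 higher and 2 lower, or 5 and 6 (0.11 above), so its share of higher calls was near that of all miRNAs. Of the 2 compared names each, the blood list had 0 higher and 0 lower by either total, the endothelial list 1 and 0, or 1 and 1, and the skin list 1 and 0, or 0 and 0; none of the muscle or liver names reached 10 CPM.

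The base at position 1 was read from the RefSeq sequence for 305 of the 367 miRNAs. miRNAs that begin with C lay highest: 39 of 56 were higher in K566A and 4 lower, or 22 and 10 without miR-292-5p, and their median lay 0.80 above that of all. miR-25-3p (2.61) and miR-20b-5p (4964 CPM in K566A and 1348 CPM in Q548A, 1.88) are abundant examples, and miR-99b-5p (-2.15) was an exception. miRNAs that begin with U, the most common first base of guides, had 74 of 137 higher and 30 lower, or 29 and 43. These shares lay near those over all 367, which were 52.6% higher and 16.3% lower, or 21.3% and 29.7%. The U-first median lay 0.086 above that of all. Those that begin with A had 41 of 87 higher and 12 lower, or 18 and 27, with a median 0.24 below it. Those that begin with G lay lowest, with 7 of 25 higher and 8 lower, or 0 and 14, and a median 1.70 below. Abundant G-first miRNAs were miR-296-3p (7862 CPM in K566A and 3941 CPM in Q548A, 0.997), miR-409-3p (-0.39), miR-434-5p (0.46) and miR-370-3p (1593 CPM in K566A and 4262 CPM in Q548A, -1.42).

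The U-first miRNAs differed with their GC content, a split chosen after the values were seen. The 62 with under 45% GC had a median 0.57 above that of all and were 44 higher and 7 lower, or 16 and 11 without miR-292-5p. The 45 with 45 to 55% GC had a median 0.20 below, with 21 higher and 8 lower, or 10 and 12. The 30 with over 55% GC had a median 2.57 below, with 9 higher and 15 lower, or 3 and 20. Of all 137 U-first miRNAs 74 were higher and 30 lower, or 29 and 43. miR-26a-5p (40.9% GC) had 17190 CPM in K566A and 3350 CPM in Q548A (log2 ratio 2.36), and miR-335-3p (36.4% GC) was at 2.52. miR-744-5p (63.6% GC), miR-92b-3p (63.6% GC) and miR-673-3p (65.2% GC) were at -3.08, -1.58 and -3.30. miR-127-3p (59.1% GC, 2.53) was an abundant exception. The order was neither particular to U-first miRNAs nor general. With rising GC content the G-first medians were 0.047, 1.65 and 2.35 below that of all (3, 16 and 6 miRNAs). The C-first medians were 0.87, 0.83 and 0.43 above it. Among A-first miRNAs those with over 55% GC lay highest, 0.77 above the median of all, and those with under 45% lay 0.58 below it.

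Every position from 1 to 20 was compared in the same way, and the base at position 3, inside the seed, gave nearly as wide a spread of medians as that at position 1. Between the highest and the lowest base the median differed by 2.50 at position 1 and by 2.30 at position 3, and by between 0.39 and 1.53 at the other 18 positions. miRNAs with a purine at position 3 lay high, with medians of 0.85 (G) and 0.55 (A) above that of all, and those with a pyrimidine lay low, with medians of -1.45 (C) and -0.95 (U). Of 166 miRNAs with a purine there 113 were higher and 14 lower, or 55 and 25 without miR-292-5p. Of 139 with a pyrimidine 48 were higher and 40 lower, or 14 and 69. Of all 367, 52.6% were higher and 16.3% lower, or 21.3% and 29.7%. In the sequences above, position 3 is the second capital. Of the 12 largest rises at 100 CPM or more, 9 have a sequence, with a purine there in 8 and a pyrimidine in 1, miR-200a-5p. Of the 12 largest falls 11 have one, with a pyrimidine in 10 and a purine in 1, miR-382-5p. These extremes are among the miRNAs in which position 3 was picked, so they illustrate that order and do not test it. The largest rise and fall of all compared miRNAs went against that order, with U at position 3 in miR-344-5p and G in miR-1197-3p.

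Outside the Dlk1-Dio3 cluster the spreads were 2.06 at position 1 and 2.09 at position 3. The order by position 3 was the same for first bases A, C and U. C-first miRNAs with a purine at position 3 had a median 1.10 above that of all (31 of 37 higher and 0 lower, or 18 and 1 without miR-292-5p), and with a pyrimidine 1.11 below. For U-first miRNAs the medians were 0.81 above and 1.28 below, and for A-first miRNAs 0.79 above and 1.15 below. For G-first miRNAs the order turned round, 2.04 below with a purine (14 miRNAs) and 0.73 below with a pyrimidine (11 miRNAs). Outside the Dlk1-Dio3 cluster the medians were 0.85 above for 138 miRNAs with a purine and 0.84 below for 108 with a pyrimidine. When each seed was counted once, by its most abundant miRNA, they were 0.79 above and 1.47 below. Abundant exceptions were miR-25-3p and miR-293-3p (U at position 3, log2 ratios 2.61 and 1.76) and miR-543-3p (A at position 3, -1.60). The split was chosen after all 20 positions had been seen, so it is a description of these 2 libraries.

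**Figure D3:**
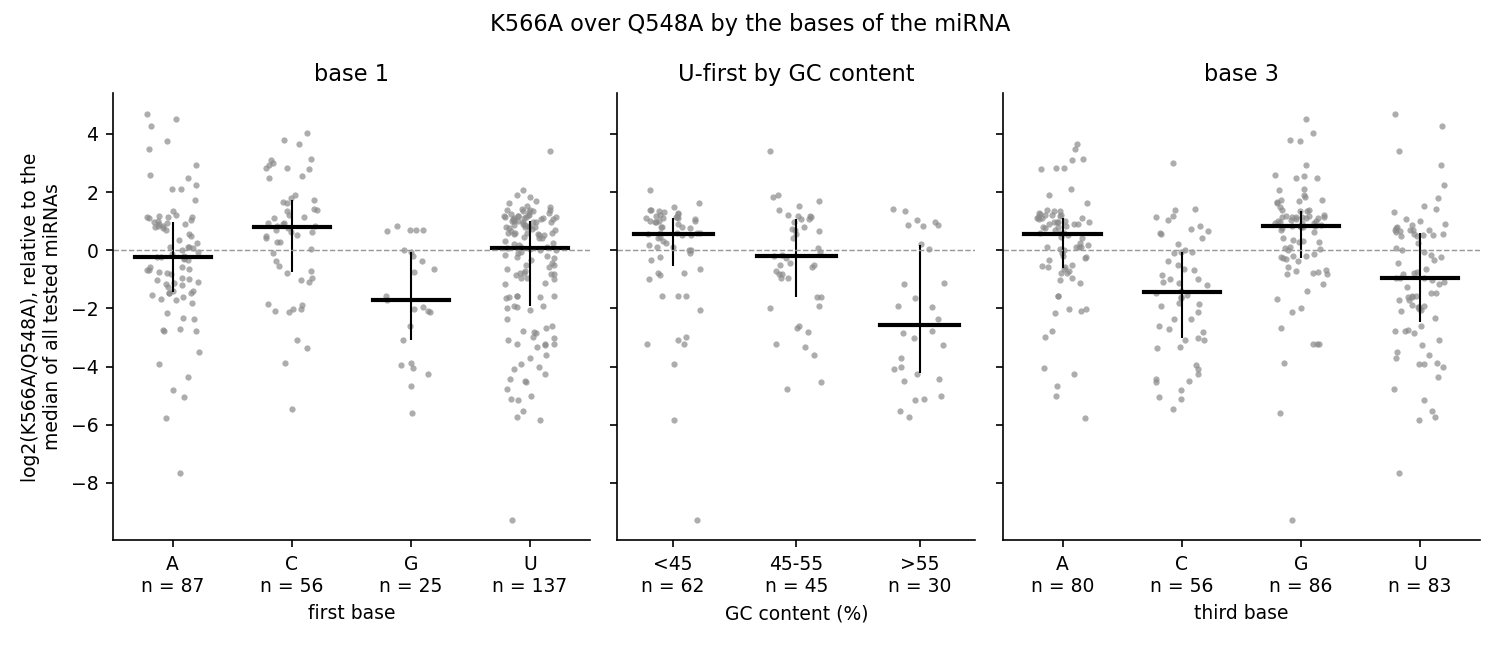
log2 ratio of K566A over Q548A relative to the median of all 367 miRNAs (vertical), for the 305 miRNAs with a RefSeq sequence, by first base, by GC content among U-first miRNAs and by base at position 3. Points are miRNAs, thick lines medians and thin lines the quartiles. Medians run from 0.80 for C to -1.70 for G at position 1, from 0.57 to -2.57 with rising GC content among U-first miRNAs, and from 0.85 for G to -1.45 for C at position 3.

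The Dlk1-Dio3 cluster lay lower than the other miRNAs. It lies in an imprinted region of chromosome 12, and its miRNAs are transcribed from the maternal allele. It is among the largest miRNA clusters of the mouse. Of its 63 compared members 16 were higher and 28 lower by total counts, and 7 and 36 without miR-292-5p. Of the 304 miRNAs elsewhere 177 were higher and 32 lower, or 71 and 73. The median of the cluster lay 1.59 below that of all, and that of the 304 elsewhere 0.23 above. Its 108 names summed to 12.5% of counts in K566A and 9.16% in Q548A, of which miR-127-3p made up 56004 CPM in K566A and 9671 CPM in Q548A. miR-433-3p, at chr12:110829991-110830012 (mm9), and miR-127-3p, at chr12:110831098-110831119, lie close together, both antisense to an exon of Rtl1, and had log2 ratios of -1.50 and 2.53.

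Within the cluster the 3p arms lay lower than the 5p arms. Of 37 compared 3p arms 5 were higher and 20 lower, or 3 and 26 without miR-292-5p, with a median 2.62 below that of all. Of 26 compared 5p arms 11 were higher and 8 lower, or 4 and 10, with a median 0.65 below. Elsewhere the order was the other way round: 140 3p arms had a median 0.57 above that of all and 164 5p arms a median 0.030 below. The lowest members were miR-1197-3p (-8.08) and miR-410-3p (-6.47), and the highest was miR-337-5p, with 769 counts in K566A and 121 counts in Q548A (5.33), whose locus overlaps miR-3544-3p, so its count is uncertain. Between these, miR-381-3p had 5372 CPM in K566A and 4529 CPM in Q548A (0.25) and miR-409-3p 4305 CPM in K566A and 5646 CPM in Q548A (-0.39), neither past a fold of 2 by total counts. U-first members had a median 2.80 below that of all, against 0.45 above for U-first miRNAs elsewhere.

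**Figure D4:**
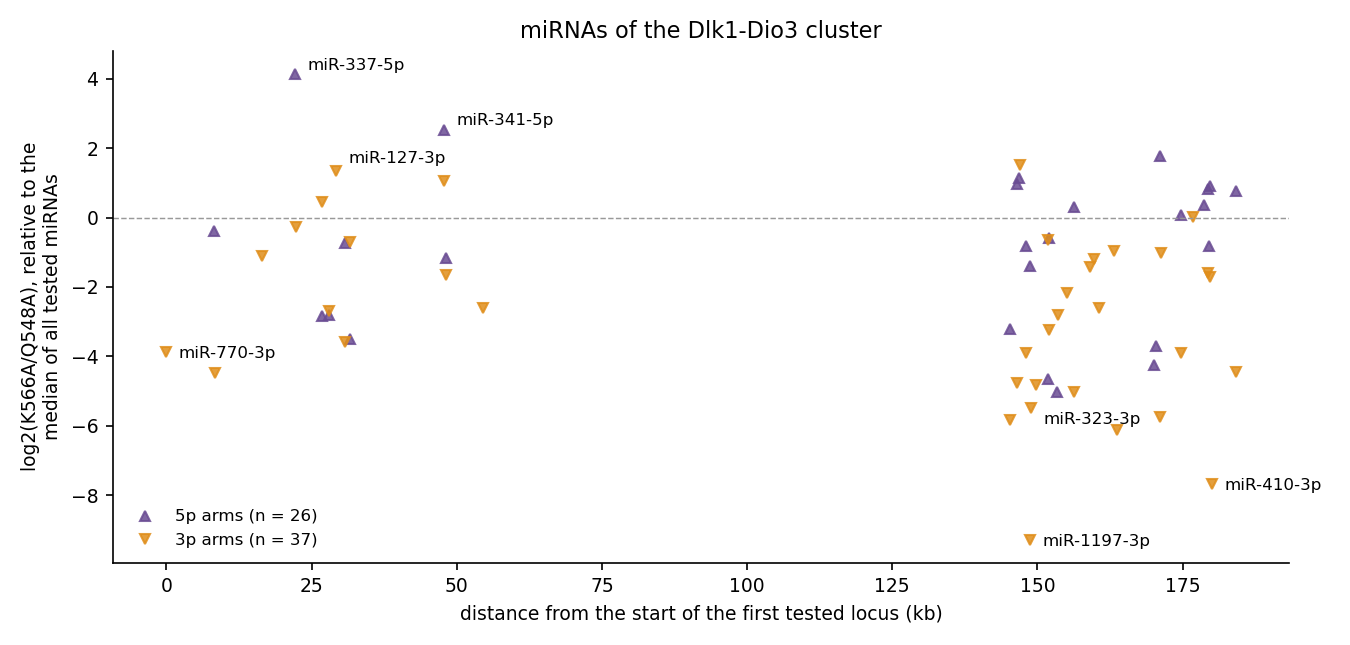
log2 ratio of K566A over Q548A relative to the median of all 367 miRNAs (vertical) for the 63 compared members of the Dlk1-Dio3 cluster, by distance from the start of the first one (horizontal, kb). Upward triangles are 5p arms and downward triangles 3p arms; most 3p arms lie below 0 along the whole 184 kb, and the few members above 1 include miR-337-5p, miR-341-5p and miR-127-3p.

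The arms of each hairpin were set against each other, a comparison from which library size and miR-292-5p cancel where both arms have counts. Median changes add 0.5 to each count, so with an arm at or near 0 they also carry the difference in depth. Of 493 hairpins with both arms in the table, 375 had at least 100 counts over both libraries. In 320 of them each arm was above 3 counts in either library. The 5p share was higher in K566A in 67 (17.9%) and lower in 82 (21.9%), where the 95% interval of the odds ratio lay wholly past 2 or 0.5, and 226 were called neither way. The share of the less abundant arm, by its mean share over the 2 libraries, was higher in K566A in 71 and lower in 78 hairpins. Among hairpins with at least 1000 counts the majority arm differed between the libraries in 34, of which 29 were called: in 18 the 5p arm was the major one in K566A and the 3p arm in Q548A, and in 16 the reverse.

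The miR-411 hairpin, in the Dlk1-Dio3 cluster at chr12:110948400-110948456 (mm9), had 79755 counts of the 5p arm and 751 of the 3p arm in K566A, a 5p share of 99.1%, and 113483 and 56974 counts in Q548A, a share of 66.6%. The log2 odds ratio was 5.74 (95% interval 5.63 to 5.84). The miR-667 hairpin had a 5p share of 91.7% in K566A and 21.6% in Q548A (5.32). Each of these had its 5p arm as the major one in K566A. The miR-410 hairpin had a 5p share of 83.2% in K566A, 89 counts against 18 of the 3p arm (Wilson 95% interval 74.97 to 89.09), and 6.47% in Q548A, 701 counts against 10138 (6.16). The miR-3072 hairpin had 78.3% in K566A and 8.88% in Q548A (5.21), and miR-342, in an intron of Evl outside the cluster, 94.3% in K566A and 33.3% in Q548A (5.06). miR-365-2 had 93.9% in K566A and 39.9% in Q548A (4.53), but its 3p arm is also that of miR-365-1, so these shares are not of the 1 hairpin alone. These too were 5p hairpins in K566A and, unlike miR-411, 3p hairpins in Q548A. miR-1199, with 1 count of its 3p arm in K566A, had 99.8% in K566A and 88.0% in Q548A (5.83, 95% interval 3.33 to 11.14). miR-760, with 6 counts of the 5p arm and 14 of the 3p arm in K566A, had 0.417% in Q548A, with 6 and 1433 counts (6.68, 95% interval 4.56 to 8.73). In 6 of these 8 hairpins, all but miR-411 and miR-1199, the 5p share was below 50% in Q548A.

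In the other direction, miR-744 had a 5p share of 91.9% in K566A and 99.97% in Q548A, with 798 counts of the 3p arm in K566A and 161 in Q548A, while its 5p arm had 9035 counts in K566A and 483641 in Q548A (log2 odds ratio -8.05, 95% interval -8.31 to -7.80). The arms of miR-744 are printed here because their bases at position 3 differ, C in the 5p arm and G in the 3p arm:
miR-744-5p: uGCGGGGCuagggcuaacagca
miR-744-3p: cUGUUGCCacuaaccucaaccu

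The miR-125a hairpin had 73.4% in K566A and 99.1% in Q548A (-5.38), with 6560 counts of miR-125a-3p in K566A and 1641 in the deeper Q548A library. miR-1934 had 26.2% in K566A and 95.4% in Q548A (-5.87), and miR-211, from an intron of Trpm1, 56.3% in K566A and 98.5% in Q548A (-5.71). miR-145, a marker of mesenchymal cells, had 0.110% in K566A, 2 counts of the 5p arm against 1811 of the 3p arm, and 66.1% in Q548A, 826 against 423 (-10.79, 95% interval -13.84 to -8.92). miR-669o had 2.03% in K566A and 36.8% in Q548A (-4.81). The 5p arms of miR-130a and miR-877 had 1 count each in K566A, with 5p shares in K566A of 0.0281% and 0.244% against 2.17% and 6.30% in Q548A (95% intervals of the log2 odds ratio -11.62 to -3.79 for miR-130a and -10.09 to -2.29 for miR-877). miR-145 and miR-1934 were the hairpins of this group whose major arm differed between the libraries. The partner of miR-30c-1-3p, among the largest rises above, was the major arm in Q548A but not in K566A: miR-30c-1 had a 5p share of 45.9% in K566A and 95.5% in Q548A (-4.65). Its 5p arm is also that of miR-30c-2, so this share too is not of the 1 hairpin alone. miR-291a had 16.2% in K566A and 39.996% in Q548A (-1.79). miR-433, whose 3p arm was lower in K566A in CPM, was called neither way, with 0.264% in K566A and 0.285% in Q548A (-0.11, 95% interval -0.26 to 0.03).

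**Figure D5:**
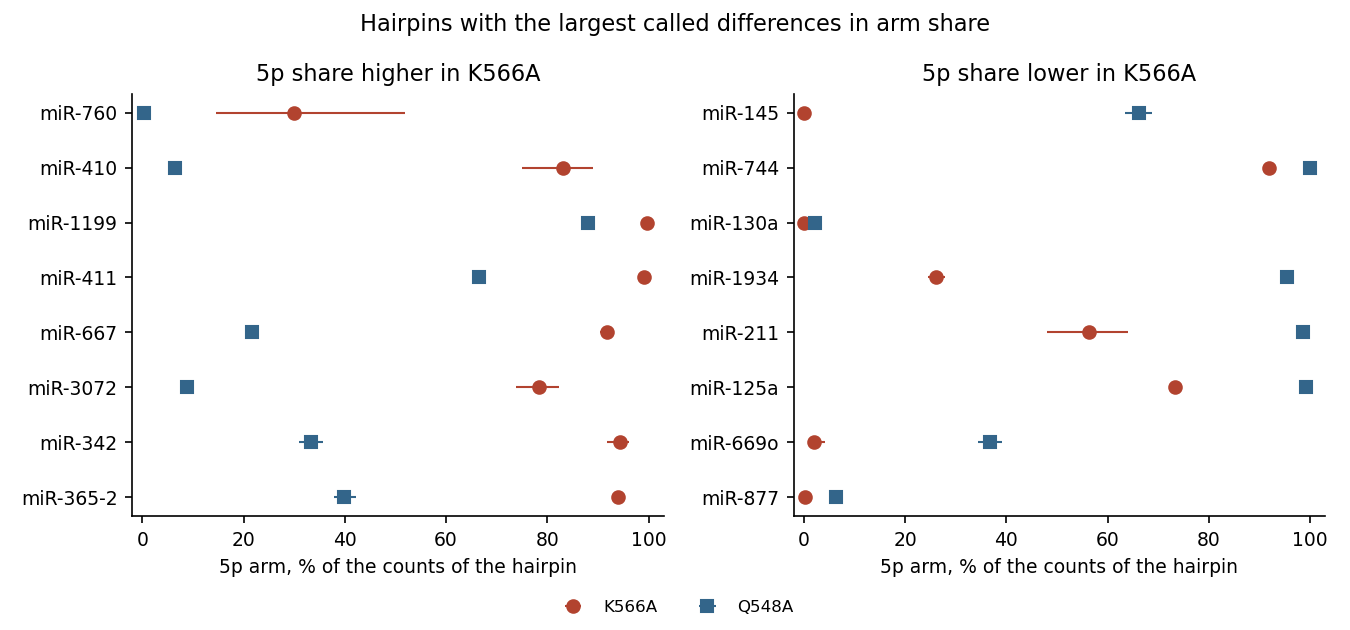
5p share of the counts of a hairpin (horizontal, %) for the 8 hairpins with the largest called rise and the 8 with the largest called fall of the 5p to 3p odds in K566A, among those with at least 1000 counts. Circles are K566A and squares Q548A, 1 library each, with Wilson 95% intervals that cover counting error only; miR-411, miR-667, miR-342 and miR-365-2 lie above 90% in K566A, and miR-145 and miR-1934 lie below 30% in K566A and above 60% in Q548A.

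Hairpins of the Dlk1-Dio3 cluster more often had a higher 5p share in K566A, and those elsewhere a lower one; the difference between them was not tested. Of the 52 in the cluster the 5p share was higher in 24 and lower in 7, with a median change of log2(5p/3p) of 1.67. Of the 323 elsewhere it was higher in 43 and lower in 75, with a median change of -0.53. With both arms above 3 counts the median changes were 1.55 in 49 hairpins of the cluster and -0.56 in 271 elsewhere. The majority arm differed in 12 hairpins of the cluster, toward the 5p arm in K566A in 11 and toward the 3p arm in miR-136. The loci of miR-136 and of miR-3071, which is among the 11, overlap, so the counts of both are uncertain. In the 48 hairpins of the cluster without overlaps 10 differed, and all 10 were toward the 5p arm. Of the 32 elsewhere, 13 went toward 5p and 19 toward 3p.

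In hairpins whose arms begin with different bases, log2(C-first arm/G-first arm) differed between K566A and Q548A by a median of 2.56 in 15 hairpins (up in K566A in 11 and down in 4), and by 1.36 in the 10 with both arms above 3 counts. The value of log2(U-first arm/C-first arm) differed by a median of -0.75 in 59 hairpins (up in 16 and down in 43). In the 52 with both arms above 3 counts it differed by -1.06 (up in 15 and down in 37). miR-191, with a C-first 5p arm and a G-first 3p arm, had a 5p share of 99.90% in K566A and 99.42% in Q548A (log2 odds ratio 2.56). miR-127, with a U-first 3p arm and a C-first 5p arm, went the other way from its group's median, with a 5p share of 0.0188% in K566A and 0.0552% in Q548A (-1.56). The median was -0.97 for U-first over G-first arms in 34 hairpins (13 up and 21 down), and -0.26 for U-first over A-first arms in 59 (25 up and 34 down). miR-423, with a U-first 5p and an A-first 3p arm, had 87.2% in K566A and 69.5% in Q548A (1.58). Between C-first and A-first arms the median change was 0.38 in 31 hairpins. Between A-first and G-first arms it was 0.014 in 19, with 10 up and 9 down. With both arms above 3 counts the medians were -0.84 for U over G in 32 hairpins and -0.38 for U over A in 52. They were 0.55 for C over A in 27 and 0.14 for A over G in 14. Some arms, such as let-7a-5p, enter through several hairpins.

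The base at position 3 was also compared between the arms of a hairpin, where scaling cancels if both arms have counts. The arm changes come from the same counts in which position 3 was picked, so they are not separate support. Apart from the first bases above, no other position was compared between arms. In 148 hairpins 1 arm had a purine and the other a pyrimidine at position 3, and the ratio of the purine to the pyrimidine arm was up in K566A in 104 and down in 44, with a median change of 1.53 in log2. By the interval, the purine arm was called higher in 61 and lower in 13. In the 134 with both arms above 3 counts the ratio was up in 97 and down in 37, with a median change of 1.73. In the Dlk1-Dio3 cluster it was up in 20 of 24 hairpins (median 2.62) and elsewhere in 84 of 124 (1.29). Among the 16 hairpins with the largest called changes, 11 had a purine in 1 arm and a pyrimidine in the other, and the purine arm's share was higher in K566A in 9 of them, the exceptions being miR-760 and miR-877. The miR-410 arms show the pattern, with U at position 3 in miR-410-3p and G in its partner:
miR-410-3p: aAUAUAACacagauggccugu
miR-410-5p: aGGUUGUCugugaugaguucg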

How the data were processed

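Per the labels' protocols, libraries of the immunoprecipitated small RNAs were prepared with NEBNext Small RNA reagents and sequenced on the HiSeq 2000. The deposited table holds raw counts for 1078 mature miRNA loci in mm9 coordinates. CASAVA 1.8.2, TopHat2 2.0.9 and mm9 are named per the submitters' processing notes; what counted the reads, with which miRNA annotation and strand setting, and how multiply matching reads were handled was not given in the sources used here. Of 65 names listed at several loci, 62 had counts, and 54 of these had equal counts at all loci (within 1% or 3 counts), so each of the 959 names was counted once, by its highest locus.

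CPM, ratios and intervals were computed here from the deposited counts with Python 3.11.15, numpy 2.4.6, pandas 2.3.3 and scipy 1.17.1; TMM factors came from edgeR 4.0.16 in R 4.3.3, and figures from matplotlib 3.10.9. miRNAs that averaged 10 CPM or more were compared. Hairpins were pairs of 5p and 3p loci of 1 name within 150 nt, with at least 100 counts; odds-ratio intervals were exact, or Woolf's where all 4 counts reached 500, and median arm changes used a pseudocount of 0.5. With 1 library a group there is no replicate error: intervals and floors cover counting error only, and amplified reads are not independent molecules. The calls were tested on simulated data.

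Mature sequences are RefSeq (GRCm38.p6), matched by name for 779 names, 34 of them by an older name; 10 whose length differed from the deposited locus were dropped. Host genes are from GENCODE M21, matched by name. Named miRNAs are the 10 most abundant of each library, the 12 largest called rises and falls averaging 100 CPM or more, up to 4 abundant members and the extremes of each list and first-base group, and 8 hairpins in each direction with the largest called changes among those with at least 1000 counts, with up to 4 hairpins for each pair of first bases. miR-136, miR-290-5p, miR-293-5p, miR-3071, miR-30c-1, miR-322-5p, miR-341-5p, miR-410-5p and miR-744-3p fall outside that rule and were chosen after their values were seen. The members and lists were chosen with earlier results of these data known.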

Additional observations from a re-analysis of the deposited data

How the results depend on the processing

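The split between higher and lower calls depended on the scaling. By total counts 193 miRNAs were higher and 60 lower in K566A, with a median log2 ratio of 1.20. Median-of-ratios scaling gave 105 higher and 105 lower with a median of 0.21, TMM gave 99 and 105 with a median of 0.15, and totals without miR-292-5p gave 78 and 109 with a median of 0.025. A minimum of 100 CPM gave 98 higher and 26 lower of 171. With no minimum 112 were lower, with a median of 0.61 over 806 miRNAs, and intervals past a fold of 4 left 104 higher and 35 lower. Among the named miRNAs called by total counts, 4 changed sign with totals without miR-292-5p: miR-181c-3p (-0.042), miR-301a-5p (-0.022), miR-467a-5p (-0.037) and miR-92b-5p (-0.093). Uncalled miRNAs with a small positive ratio, such as miR-381-3p, changed sign as well. The numbers that follow count each value once per alternative run. The other 19 counts and the 42 median arm changes moved less than their spread or 1.5 times. So did the 64 medians of first-base, GC and position 3 groups relative to all miRNAs. The 42 are the same 7 changes, and the 64 the same 8 medians, under each alternative that applied. Of the 64, the 8 under each other scaling could not move, because a median relative to that of all does not depend on the scaling. Of the relative medians of the miRNA lists, 202 stayed within the interval of the main median and 13 moved past it. For small lists that interval is the full range of the members. The 27 list medians under each other scaling, all among the 202, could not move either, so they say nothing about stability. Of the log2 ratios of named miRNAs, 1220 kept their call or stayed uncalled, 142 lost a call and 60 gained one. The alternatives were the scalings above, a higher or no minimum, every locus as a row, merged equal names, Q548A thinned to the depth of K566A, single-locus arms, no overlapping loci and another pseudocount. The position 3 and GC splits and the overlap setting were chosen after seeing the data. No replicate could be left out. No paired analysis was possible because each group has 1 library. Ratios that rest on 1 to 3 counts in K566A are limited by its depth.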
